A study of Mus musculus with 18 samples.

Results

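The genes described here are 33 genes of sterol and fatty acid synthesis in mouse NIH3T3 cells, an established line of embryonic fibroblasts. They were taken by name from gene-level count tables of 24062 genes, 24 as cholesterol genes and 9 as fatty acid genes, and the 2 lists are reported separately. All 33 were found and all 33 passed the filter on low counts, which kept 12140 genes for testing. The lowest count of any of the 33 in any sample was 116 reads, for Idi1.

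RNA was sequenced from 18 samples, 3 for each of 6 combinations of line and treatment. The parental line is called WT here, and the derived line, NIH3T3-mCherry-mTRIM21, is called TRIM21. It carries mouse TRIM21, a ubiquitin ligase that binds the constant region of antibodies, fused to a red fluorescent protein. Cells of each line were electroporated with PBS, with bovine serum albumin (BSA) or with an antibody (IgG), at 7.5 µg where protein was given, and RNA was taken after 16 h in medium with 10% calf serum. All samples, PBS included, were electroporated, and no sample shows cells without a pulse. The labels describe 1 derived line, so an effect of introduced TRIM21 and any other difference between these 2 lines cannot be told apart, and they do not say whether samples came from separate cultures. The p-values below therefore measure the spread between these samples, which may be technical. Each sample title carries the number 10, 11 or 14, once per group, and the labels do not say what the number stands for.

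Cells make cholesterol from acetyl-CoA. The mevalonate pathway yields farnesyl diphosphate, squalene synthase commits this to sterols, and a series of oxidases, reductases and isomerases turns squalene by way of lanosterol into cholesterol. Transcription of these enzymes is set largely by the SREBP proteins, which Srebf1 and Srebf2 encode. When membrane sterol is scarce, SCAP carries the SREBP precursor from the endoplasmic reticulum to the Golgi for cleavage, and when sterol is plentiful INSIG proteins hold the complex back. Fatty acid synthesis starts from the same acetyl-CoA pool, which ATP-citrate lyase supplies from citrate, and runs through acetyl-CoA carboxylase, fatty acid synthase, elongases and desaturases. In fibroblasts kept in serum both pathways are active at a level that lipoprotein uptake from the serum helps to set.

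Sequencing depth was 19509017 to 29766433 gene counts per sample. As a check of the line labels, Trim21 counts were 142 to 223 in WT and 19900 to 32225 in TRIM21 (9 samples each). All 10 fibroblast markers examined exceeded 1 CPM (read counts scaled to a library of 1000000 with TMM factors) in every sample, with summed levels of 19604 to 33406 CPM in TRIM21 and 29012 to 38979 CPM in WT. Of the 6 adipocyte markers and 4 hepatocyte markers, none reached 1 CPM in any sample, and Lep, Cfd and Ttr were at 0 throughout. The summed adipocyte level stayed at or under 0.979 CPM. Of 5 epithelial markers 4 stayed under 1 CPM and Krt5 was at 0. Of 5 macrophage markers, Csf1r and Cd68 exceeded 1 CPM in every sample and Adgre1, listed as Emr1, was at 0, with summed levels of 7.39 to 11.8 CPM in TRIM21 and 7.61 to 10.6 CPM in WT. The lower end of the fibroblast marker sum in TRIM21 moves with the line comparison, and its part in the results below was not tested.

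Most of the matched cholesterol genes held the same short sequence in at least 1 promoter window, a feature that the choice of the genes did not use. RefSeq windows of 300 bases around start sites (build GRCm38.p6, 250 bases upstream and 50 downstream) were matched for 20 of 24 cholesterol genes and 6 of 9 fatty acid genes. A gene was counted if any of its windows held a match, so genes with more windows had more places to match. Dhcr7, Srebf1 and Insig2 had 3 windows each, and Pmvk and Scap had 2. The shares by gene are not corrected for this. The letters CCAAT, a box bound by NF-Y and found in many promoters, were searched on both strands. They occurred in 18 of the 20 cholesterol genes (90%) and 3 of the 6 fatty acid genes (50%), against 41.1% of all 27025 genes in the table and 43.7% of the tested genes in it. All 9 matched genes between squalene and cholesterol held the box in at least 1 window, Dhcr7 in only 1 of its 3 windows. The longer motif TCACNCCAC, one spelling of the sterol regulatory element that SREBP binds, was found in 1 of 20 cholesterol genes and 0 of 6 fatty acid genes, against 1.44% of all genes in the table. The shorter CACNCCA, which lies inside the longer motif and was added after the first search, was found in 6 of 20 (30%), 0 of 6 and 20.6% respectively. A match is a description of the letters in this window and not of a bound site.

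Upstream stretches of 250 bases are shown for 4 cholesterol genes, 5′ to 3′ on the strand of the gene, ending at the base before the start site. Hmgcs1 is shown as the single gene with the longer motif, Pmvk and Lss because they passed the line test below in every fit that left out 1 sample, and Nsdhl because it was low both in TRIM21 and in samples numbered 10. Capitals mark CCAAT, its reverse complement ATTGG and, in Hmgcs1, TCACCCCAC. The stretches lie at chr13:119690101-119690350 (Hmgcs1), chr3:89454291-89454540 (Pmvk), chr10:76531355-76531604 (Lss) and chrX:72918271-72918520 (Nsdhl), all on the plus strand.
Hmgcs1: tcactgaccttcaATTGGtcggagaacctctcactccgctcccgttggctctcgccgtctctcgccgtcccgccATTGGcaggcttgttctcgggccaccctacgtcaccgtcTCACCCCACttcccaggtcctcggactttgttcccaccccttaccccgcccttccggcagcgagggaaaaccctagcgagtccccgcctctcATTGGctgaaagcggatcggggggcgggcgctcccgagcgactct
Pmvk: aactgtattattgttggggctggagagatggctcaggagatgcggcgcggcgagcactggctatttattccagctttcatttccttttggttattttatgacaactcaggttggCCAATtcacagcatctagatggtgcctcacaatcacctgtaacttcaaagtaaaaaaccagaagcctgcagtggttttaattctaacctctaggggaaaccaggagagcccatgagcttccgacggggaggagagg
Lss: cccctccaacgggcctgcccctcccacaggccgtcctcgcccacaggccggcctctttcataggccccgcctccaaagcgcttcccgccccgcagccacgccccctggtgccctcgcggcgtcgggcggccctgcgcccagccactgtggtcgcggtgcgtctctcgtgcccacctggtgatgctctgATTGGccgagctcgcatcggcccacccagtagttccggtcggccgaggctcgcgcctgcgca
Nsdhl: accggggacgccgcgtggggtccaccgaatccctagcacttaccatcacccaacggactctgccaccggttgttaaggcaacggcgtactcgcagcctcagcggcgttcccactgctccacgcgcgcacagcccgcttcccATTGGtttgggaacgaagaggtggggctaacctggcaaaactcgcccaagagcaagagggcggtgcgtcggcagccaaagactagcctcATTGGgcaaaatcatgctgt
In Hmgcs1 the sterol motif began 137 bases before the start site (offset -137), with boxes at offsets -237, -176 and -45. Pmvk held 1 box in this window at offset -136, Lss 1 at -62, and Nsdhl held boxes at -109 and -20.

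Levels of the 33 genes were compared per exon length. Exon length here counts every base in any annotated exon of the gene, 17074 for Acaca, so the order depends on the annotation. On the scale of CPM per kilobase of exon, averaged over all 18 samples, the stearoyl-CoA desaturase Scd2 was highest at 383 ± 50.9 (SD, n = 18). Acly, the ATP-citrate lyase, followed at 82.4 ± 4.22. Then came 5 genes whose means lay within 1 SD of each other: squalene epoxidase Sqle at 63.8 ± 6.75, lanosterol demethylase Cyp51 at 62.1 ± 9.30, the desaturase Fads1 at 60.6 ± 5.69, HMG-CoA synthase Hmgcs1 at 59.7 ± 10.4 and Scd1 at 57.8 ± 6.94. The lowest levels were those of the carboxylase Acaca at 4.60 ± 0.477, the reductase Dhcr7 at 2.89 ± 0.457, the isomerase Idi1 at 2.81 ± 0.531 and the sterol reductase Tm7sf2 at 2.19 ± 0.276. Scd1 and Scd2 are paralogs of similar sequence, and how reads that fit both were counted is not given in the sources used here, so their split is uncertain.

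**Figure D1:**
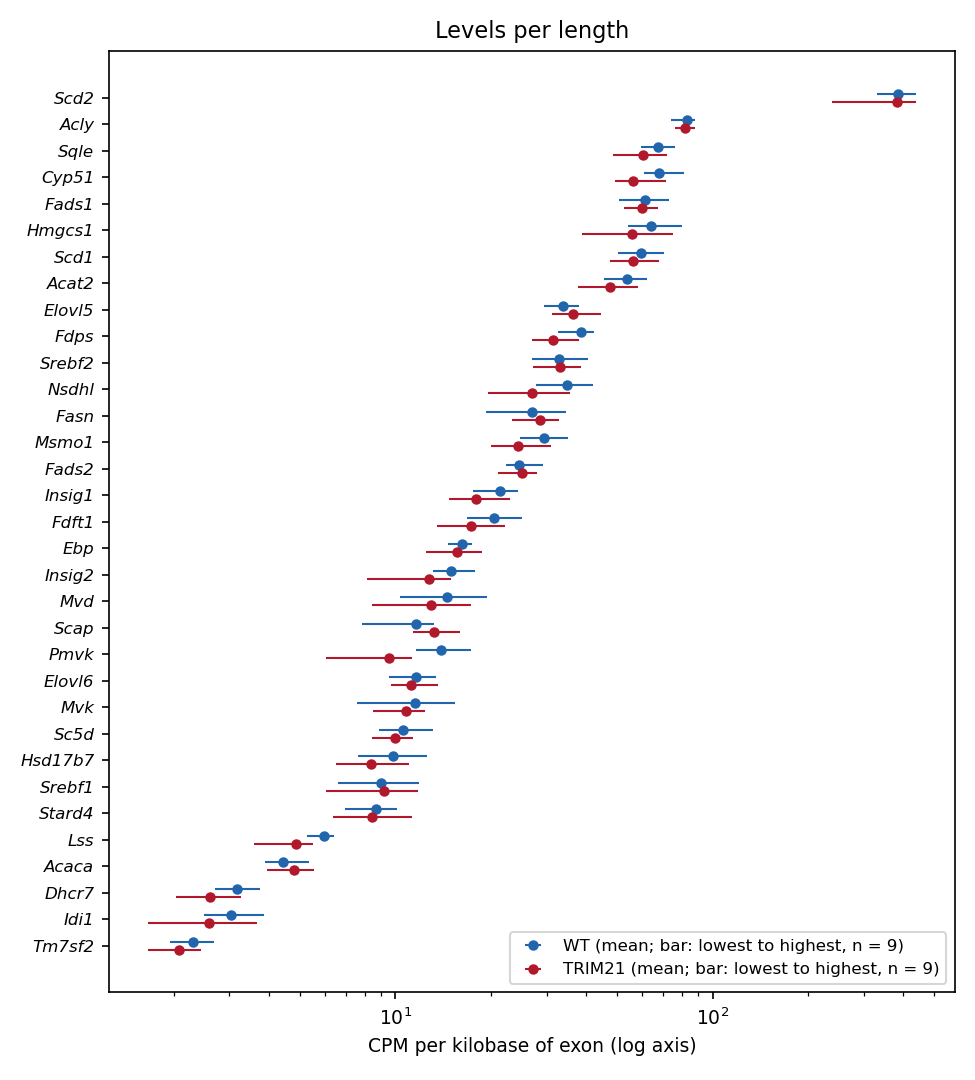
Level of each of the 33 genes in CPM per kilobase of exon, on a log axis; points are the means of 9 WT (blue) and 9 TRIM21 (red) samples and bars run from the lowest to the highest sample. Scd2 stands highest at a mean of 383 over all 18 samples and Tm7sf2 lowest at 2.19, and the bars of the 2 lines overlap for every gene except Pmvk.

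The first comparison asks how the lines differ, as the mean of the 3 differences within treatments (TRIM21 minus WT). Enzymes at 3 points of cholesterol synthesis fell in TRIM21: Pmvk, which makes mevalonate diphosphate, Fdps, which makes farnesyl diphosphate, and Lss, which closes the ring to lanosterol. These were 3 of 24 cholesterol genes with an adjusted p under 0.05 (edgeR quasi-likelihood test, Benjamini-Hochberg adjustment over all 12140 genes), all lower, against 6.18% of all genes tested in either direction and 4.79% lower. The log2 fold change was negative for 21 of 24 cholesterol genes, with a median of -0.21, against 46.0% of all genes tested and a median of 0.014. No fatty acid gene passed, and their median was -0.016.

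Pmvk lies at chr3:89454541-89469013 on the plus strand (GENCODE annotation of GRCm38). Its level after PBS was 22.5, 29.8 and 19.8 CPM in WT samples 10, 11 and 14 and 16.3, 10.4 and 18.2 CPM in the TRIM21 samples of the same numbers. After BSA it was 28.5, 23.2 and 26.9 CPM in WT and 14.7, 16.2 and 17.8 CPM in TRIM21. After IgG it was 20.3, 22.9 and 20.9 CPM in WT and 16.5, 17.9 and 19.3 CPM in TRIM21. Every TRIM21 sample was below every WT sample, and the lowest of all was TRIM21 PBS 11. The means were 16.4 ± 2.63 CPM in TRIM21 and 23.9 ± 3.66 CPM in WT (SD, n = 9 each). The log2 fold change was -0.54 (SE 0.102, adjusted p = 0.00249, edgeR quasi-likelihood), a change of -31.3%. It was the 1 of 24 cholesterol genes with no overlap between the lines, where 1.67% of all genes tested lay lower in TRIM21 without overlap.

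Fdps lies at chr3:89093588-89101959 on the minus strand. After PBS its level was 137, 177 and 168 CPM in WT samples 10, 11 and 14 and 123, 118 and 136 CPM in TRIM21. After BSA it was 159, 178 and 175 CPM in WT and 113, 160.2 and 130.0 CPM in TRIM21, and after IgG 142, 175 and 149 CPM against 113, 138 and 155 CPM. The TRIM21 sample was lower in 8 of 9 pairs of the same treatment and number, IgG 14 being the exception, and the lines overlapped. The means were 132 ± 17.1 CPM in TRIM21 and 162 ± 15.9 CPM in WT (SD, n = 9 each), with a log2 fold change of -0.30 (SE 0.079, adjusted p = 0.029, edgeR quasi-likelihood). Of its exon bases, 26.7% are shared with Gm43738, an annotated gene on the same strand that has no row in the tables. The call was lost when any 1 of TRIM21 BSA 10, TRIM21 BSA 14, TRIM21 IgG 10, WT PBS 11, WT BSA 14 or WT IgG 11 was left out, with an adjusted p of up to 0.069.

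Lss lies at chr10:76531588-76557138 on the plus strand. After PBS its level was 62.9, 68.1 and 69.0 CPM in WT samples 10, 11 and 14 and 49.1, 38.6 and 54.5 CPM in TRIM21. After BSA it was 56.7, 65.1 and 68.2 CPM in WT and 49.2, 59.4 and 57.4 CPM in TRIM21, and after IgG 60.5, 68.6 and 61.2 CPM against 47.3, 57.9 and 57.6 CPM. Each TRIM21 sample was below its WT partner, and the lines overlapped only through WT BSA 10. The means were 52.3 ± 6.83 CPM and 64.5 ± 4.39 CPM (SD, n = 9 each), with a log2 fold change of -0.30 (SE 0.071, adjusted p = 0.015, edgeR quasi-likelihood). Pmvk and Lss passed in all 18 fits that left out 1 sample each.

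**Figure D2:**
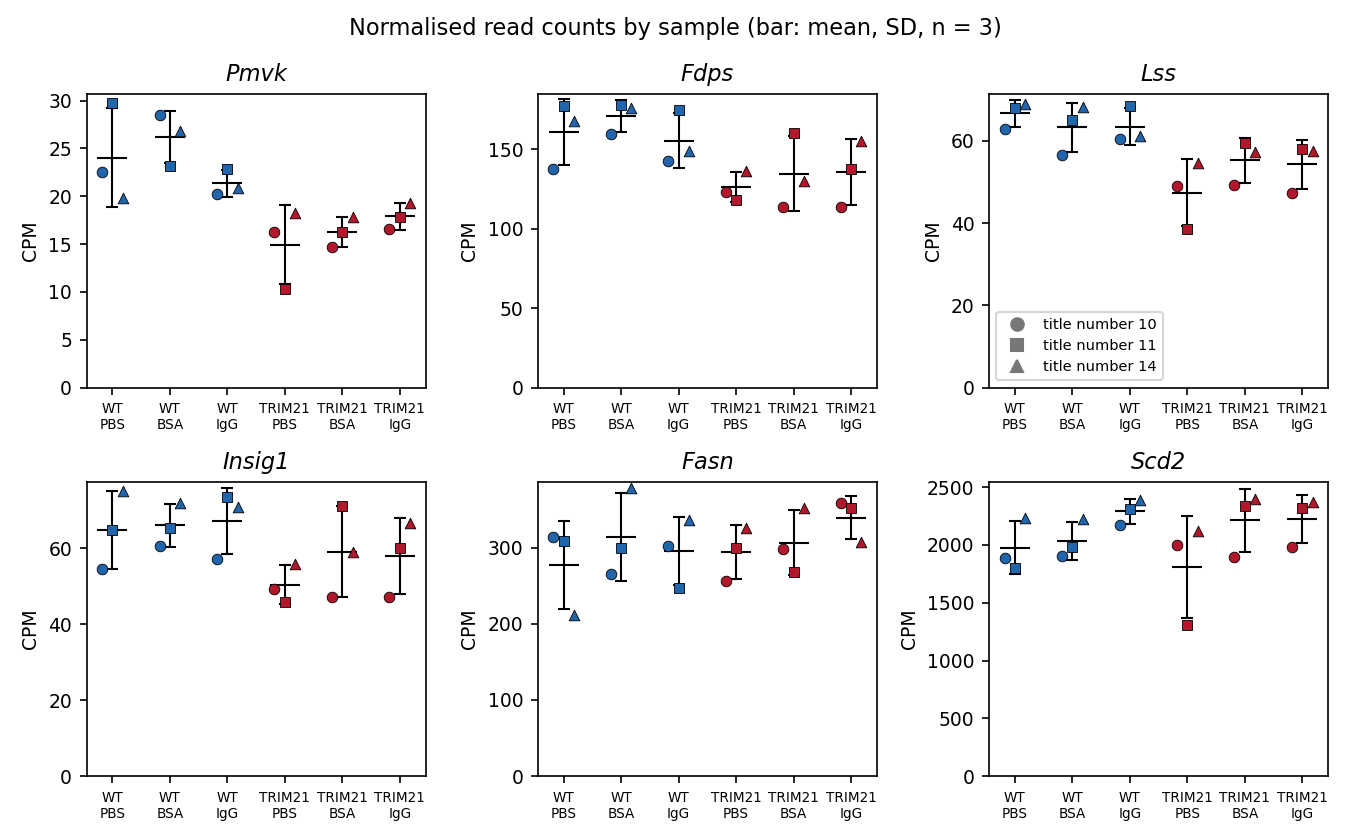
Normalised read counts (CPM, from 0) in each sample for 3 genes that fell in the TRIM21 line (Pmvk, Fdps, Lss) and for Insig1, Fasn and Scd2, which did not pass; symbols give the title number, bars the mean and SD of 3 samples. The 9 TRIM21 values of Pmvk, 10.4 to 19.3 CPM, all lie under the 9 WT values, 19.8 to 29.8 CPM.

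Among the enzymes that build farnesyl diphosphate, all 7 had negative log2 fold changes, with a median of -0.20, and Pmvk and Fdps passed. Hmgcs1, which condenses acetoacetyl-CoA with acetyl-CoA, ran from 179 to 344 CPM (median 245) in TRIM21 and from 248 to 368 CPM (median 277) in WT, a log2 fold change of -0.20 (SE 0.102, adjusted p = 0.258, edgeR quasi-likelihood). The other values were -0.18 for the thiolase Acat2, -0.23 for Idi1, -0.17 for the decarboxylase Mvd and -0.09 for mevalonate kinase Mvk, none of them past the threshold. Phosphomevalonate kinase Pmvk thus stood apart in size, while the kinase directly before it and the decarboxylase directly after it had smaller values that did not pass. Whether Pmvk differs from those neighbours in its change was not tested.

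From the synthesis of squalene to cholesterol, all 11 genes had negative log2 fold changes, with a median of -0.25, and Lss passed. Nsdhl, a dehydrogenase in the removal of sterol methyl groups, had the largest value in this group, -0.37 (SE 0.113, adjusted p = 0.061, edgeR quasi-likelihood). Its range was 55.9 to 101 CPM (median 77.0) in TRIM21 and 79.2 to 119.9 CPM (median 98.9) in WT, so that the lines overlapped although each TRIM21 sample was below its partner. Cyp51 had -0.27 (SE 0.082, adjusted p = 0.056, edgeR quasi-likelihood), with 217 to 314 CPM in TRIM21 and 268 to 359 CPM in WT. Dhcr7, the last reductase of this route, had -0.28 (adjusted p = 0.091, edgeR quasi-likelihood), the methylsterol oxidase Msmo1 -0.27 and squalene synthase Fdft1 -0.25. Sqle, whose enzyme carries out a slow, regulated step, ran from 269.6 to 399 CPM (median 329) in TRIM21 and from 329.9 to 421 CPM (median 364) in WT, a log2 fold change of -0.16 (SE 0.068, adjusted p = 0.194, edgeR quasi-likelihood). Hsd17b7 stood at -0.23, Tm7sf2 at -0.15, Sc5d at -0.08 and the isomerase Ebp at -0.06. The exons of Fdft1 share 18.3% of their bases with Ctsb on the opposite strand and those of Tm7sf2 12.1% with Vps51 on the same strand, and the strand setting of the counting is not given in the sources used here, so these 2 are less certain.

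Across the cholesterol genes, the TRIM21 sample was below its WT partner in 9 of 9 pairs for 5 of 24 genes (Pmvk, Lss, Nsdhl, Dhcr7 and Insig2) and for 0 of 9 fatty acid genes, where 4.78% of all genes tested showed this. At an unadjusted p under 0.05 there were 12 of 24 cholesterol genes and 0 of 9 fatty acid genes, against 21.4% of all genes tested. Of all 750 genes called, 169 were higher and 581 lower in TRIM21. With an offset for transcript GC content, chosen after seeing the data, that split was 379 higher and 780 lower. The count of cholesterol genes rested in part on single samples: it was 7 without TRIM21 PBS 14, 6 without TRIM21 BSA 11, TRIM21 IgG 14 or WT PBS 10, and 5 without WT IgG 10. The share of all genes was 10.4% without TRIM21 PBS 14 and 5.3% to 6.46% in the other 4 fits. The count fell to 2 without TRIM21 BSA 10, TRIM21 BSA 14, TRIM21 IgG 10, WT PBS 11, WT BSA 14 or WT IgG 11. In the fits with 2 such genes the share of all genes was 4.23% to 6%.

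**Figure D3:**
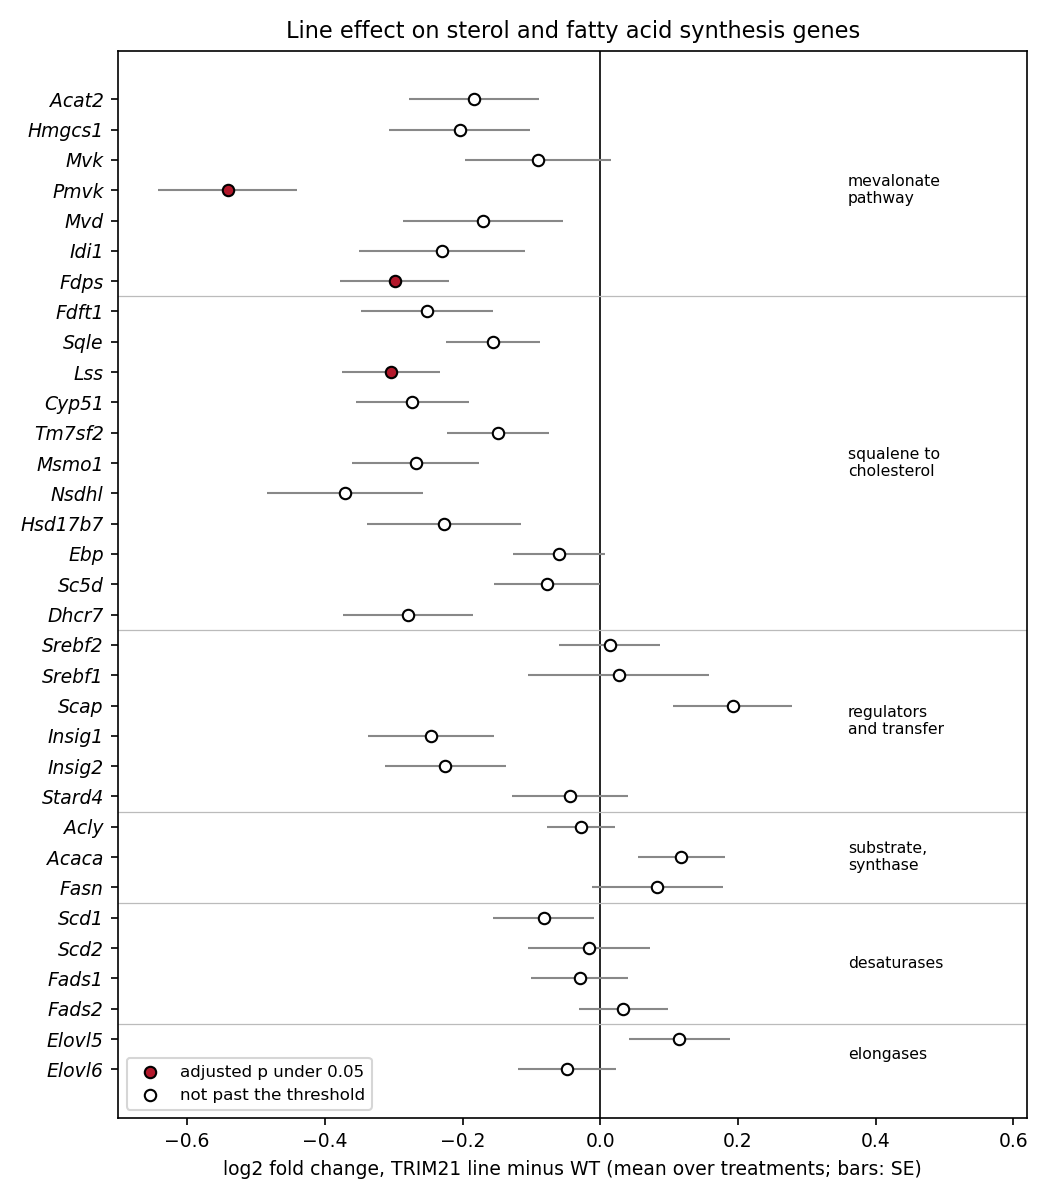
Log2 fold change of each gene, TRIM21 minus WT averaged over treatments, with its SE, grouped by role; filled points have an adjusted p under 0.05. The 18 enzymes of cholesterol synthesis all lie below 0, from Pmvk at -0.54 to Ebp at -0.06, and the 9 fatty acid genes lie between -0.08 and 0.12.

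None of the 6 genes of regulation and sterol transfer passed. Srebf2, which encodes the SREBP that mainly drives cholesterol genes, had 195 to 277 CPM (median 240.4) in TRIM21 and 194 to 290.2 CPM (median 227) in WT, a log2 fold change of 0.014 (SE 0.074, adjusted p = 0.935, edgeR quasi-likelihood). Srebf1, whose SREBP leans towards fatty acid genes, had 34.1 to 66.6 CPM and 37.1 to 67.1 CPM, a log2 fold change of 0.027 (SE 0.131, adjusted p = 0.927, edgeR quasi-likelihood). For both transcription factor genes the lines covered nearly the same range. Scap had 84.6 to 119 CPM (median 97.8) in TRIM21 and 58.4 to 98.4 CPM (median 90.8) in WT, with the lowest value in WT PBS 14, and a log2 fold change of 0.19 (SE 0.086, adjusted p = 0.205, edgeR quasi-likelihood). Insig1, itself a classic SREBP target, had 45.8 to 71.1 CPM (median 55.9) in TRIM21 and 54.5 to 75.1 CPM (median 65.3) in WT, a log2 fold change of -0.25 (SE 0.092, adjusted p = 0.128, edgeR quasi-likelihood). Insig2 had 28.3 to 52.1 CPM and 45.7 to 61.9 CPM, with TRIM21 PBS 11 far below the rest, and a log2 fold change of -0.23 (adjusted p = 0.147, edgeR quasi-likelihood). Stard4, which carries sterol between membranes, had -0.04. Of these 6 genes, 3 lay below 0 and 3 above.

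Fatty acid genes showed small values in both directions. Acly had 403 to 463 CPM (median 441) in TRIM21 and 389.9 to 466 CPM (median 439.9) in WT, a log2 fold change of -0.03 (SE 0.050, adjusted p = 0.784, edgeR quasi-likelihood). Acaca, which makes malonyl-CoA, had 67.4 to 94.6 CPM (median 81.6) and 66.2 to 91.2 CPM (median 75.2), the highest value of this list at 0.12 (SE 0.063, adjusted p = 0.292, edgeR quasi-likelihood). Fasn, the fatty acid synthase, had 256 to 358 CPM and 211 to 378 CPM, a log2 fold change of 0.08 (adjusted p = 0.652, edgeR quasi-likelihood). In all 3 genes the samples of the lines interleaved.

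The desaturases and elongases were alike in this respect. Scd1 had 232 to 331 CPM (median 264) in TRIM21 and 247 to 345 CPM (median 292) in WT, a log2 fold change of -0.08 (adjusted p = 0.547, edgeR quasi-likelihood). Scd2, by far the most abundant, had 1304 to 2399 CPM (median 2122) and 1803 to 2387 CPM (median 2176), a log2 fold change of -0.02, and its lowest sample was again TRIM21 PBS 11. Fads1 and Fads2, which desaturate polyunsaturated chains, had -0.03 and 0.03. The elongases Elovl5 and Elovl6 had 0.12 and -0.05. No fatty acid gene passed under edgeR, limma-voom or DESeq2, where 6.18%, 6.05% and 8.57% of all genes tested did. None of the 9 had an unadjusted p under 0.05, against 21.4% of all genes.

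Seen by sample, the cholesterol list leaned lower in TRIM21 and the fatty acid list did not. For each sample the median, over the 24 cholesterol genes, of the deviation from each gene's mean log2 CPM was taken. These medians averaged -0.11 ± 0.170 in TRIM21 and 0.12 ± 0.098 in WT (SD, n = 9 each), and for the 9 fatty acid genes 0.006 ± 0.099 and -0.018 ± 0.104. The lowest cholesterol medians were those of TRIM21 PBS 11 at -0.35, TRIM21 BSA 10 at -0.28, TRIM21 PBS 10 at -0.24 and TRIM21 IgG 10 at -0.22. The highest were those of WT PBS 14 at 0.26 and WT IgG 11 at 0.24. The lines overlapped, since TRIM21 BSA 11 reached 0.15 and TRIM21 IgG 14 reached 0.09, while WT IgG 10 stood at -0.02.

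**Figure D4:**
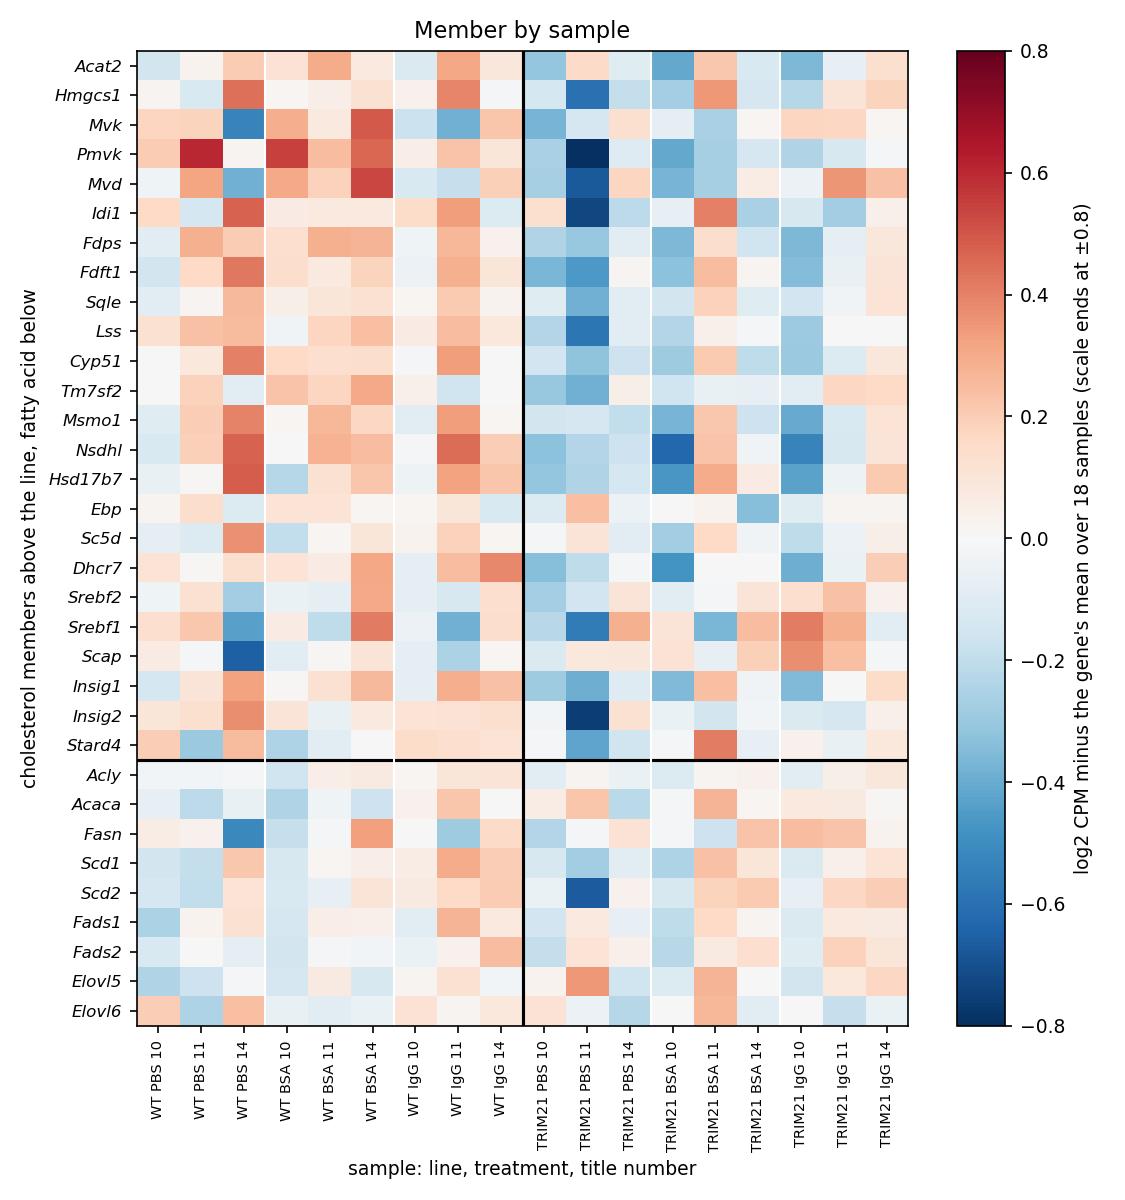
Deviation of each gene in each sample from its mean log2 CPM over 18 samples (blue lower, red higher; the scale ends at 0.8 in each direction), with WT samples left and TRIM21 samples right of the vertical line, and cholesterol genes above fatty acid genes. Blue columns in the cholesterol block include TRIM21 PBS 11, with a median of -0.35, and the 3 TRIM21 samples numbered 10.

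Within single treatments the cholesterol genes leaned the same way and none passed. After PBS, 22 of 24 had negative log2 fold changes with a median of -0.30, after BSA 22 of 24 with a median of -0.17 and after IgG 18 of 24 with a median of -0.19. Of all genes tested, 49.1%, 51.0% and 48.4% had log2 fold changes that were not positive, in the same order. The shares of all genes tested that passed were 1.71%, 0.848% and 0.774%, and 0 of 24 cholesterol and 0 of 9 fatty acid genes passed in each (edgeR quasi-likelihood, Benjamini-Hochberg). At an unadjusted p under 0.05 there were 11, 5 and 0 cholesterol genes, against 19.8%, 10.3% and 7.79% of all genes, and 0, 1 and 0 fatty acid genes. The DESeq2 Wald test called 2, 1 and 0 cholesterol genes, with 3.71%, 1.35% and 1.37% of all genes, and limma-voom none, with 1.52%, 0.84% and 0.815%. Without TRIM21 PBS 14, 4 cholesterol genes passed after PBS, and the share of all genes rose with them to 8.33%. The smallest p after PBS was that of Lss, at -0.49 (SE 0.123, adjusted p = 0.052, edgeR quasi-likelihood). After BSA it was that of Pmvk, at -0.69 (SE 0.175, adjusted p = 0.089, edgeR quasi-likelihood), and after IgG that of Scap, at 0.31 (SE 0.149, adjusted p = 0.639, edgeR quasi-likelihood). Pmvk itself had -0.68 after PBS and -0.25 after IgG, and Lss -0.20 after BSA and -0.23 after IgG. Fatty acid medians were -0.018, 0.060 and -0.042, with the smallest p for Elovl5 at 0.22 after PBS, Acaca at 0.24 after BSA and Scd1 at -0.17 after IgG.

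Electroporated protein made no difference that passed. In the 6 comparisons between treatments within a line, 0 of the 33 genes and 0% of all genes tested had an adjusted p under 0.05 (edgeR quasi-likelihood, Benjamini-Hochberg), and the DESeq2 Wald test and limma-voom called none of the 33. In TRIM21, IgG minus PBS had positive log2 fold changes for 21 of 24 cholesterol genes with a median of 0.17, and BSA minus PBS for 21 of 24 with a median of 0.11. These 2 comparisons share the 3 PBS samples, among them TRIM21 PBS 11, the lowest sample. Taken between samples of the same number, the cholesterol median of IgG minus PBS was 0.02, 0.18 and 0.30 for 10, 11 and 14, and that of BSA minus PBS was -0.005, 0.32 and 0.17. IgG minus BSA had 12 of 24 with a median of 0.002. In WT the medians were -0.02 for IgG minus PBS (11 of 24 positive), -0.02 for IgG minus BSA (10 of 24) and 0.02 for BSA minus PBS (13 of 24). The fatty acid medians of these contrasts were 0.06, 0.008 and 0.06 in TRIM21 and 0.14, 0.14 and 0.011 in WT, in the order IgG minus PBS, IgG minus BSA and BSA minus PBS. Over all genes tested the medians of these 6 comparisons lay between -0.005 and 0.008, and 47.9% to 51.7% of log2 fold changes were positive.

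The cholesterol gene with the smallest p in TRIM21 was Tm7sf2 for IgG minus PBS, at 0.28 (SE 0.130, adjusted p = 0.724, edgeR quasi-likelihood), Mvd for IgG minus BSA, at 0.37 (SE 0.202), and Stard4 for BSA minus PBS, at 0.31 (SE 0.145). In WT it was Pmvk for IgG minus PBS, at -0.17 (SE 0.175), Tm7sf2 for IgG minus BSA, at -0.27 (SE 0.129), and Mvd for BSA minus PBS, at 0.35 (SE 0.201). Among fatty acid genes it was Scd2 in TRIM21 for IgG minus PBS, at 0.30 (SE 0.155), and for BSA minus PBS, at 0.29 (SE 0.155), and Elovl6 for IgG minus BSA, at -0.15 (SE 0.123). In WT it was Acaca for IgG minus PBS, at 0.20 (SE 0.110), and for IgG minus BSA, at 0.23 (SE 0.110), and Elovl6 for BSA minus PBS, at -0.14 (SE 0.123). At an unadjusted p under 0.05 there were 1 cholesterol gene each in TRIM21 IgG minus PBS, TRIM21 BSA minus PBS and WT IgG minus BSA, and 1 fatty acid gene in WT IgG minus BSA, against 5.61%, 3.68% and 5.87% of all genes in those comparisons. In the other 3 comparisons, TRIM21 IgG minus BSA, WT IgG minus PBS and WT BSA minus PBS, 0 of the 33 genes had one, against 0.371%, 2.68% and 2.49% of all genes.

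Group levels are given for 3 of the most studied enzymes. Hmgcs1 had 297 ± 62.6, 283 ± 11.01 and 299.8 ± 47.9 CPM in WT after PBS, BSA and IgG and 220.3 ± 36.4, 271 ± 63.6 and 276 ± 39.8 CPM in TRIM21 (SD, n = 3 each). Sqle had 369.6 ± 46.7, 374 ± 9.62 and 373 ± 28.2 CPM in WT and 309 ± 34.4, 348 ± 44.5 and 347 ± 31.7 CPM in TRIM21. Fasn had 278 ± 57.8, 314 ± 57.9 and 295 ± 44.7 CPM in WT and 294 ± 35.4, 306 ± 42.7 and 339 ± 27.8 CPM in TRIM21. None of these differences between treatments passed, and the SD within groups was up to 63.6 CPM for Hmgcs1. Whether a treatment acted differently in the 2 lines was tested by the interaction. There too 0 of 33 genes and 0% of all genes passed in the 3 contrasts. The cholesterol medians were 0.16 for IgG minus PBS, 0.012 for IgG minus BSA and 0.08 for BSA minus PBS, and the fatty acid medians -0.03, -0.12 and 0.03. The smallest p belonged to Tm7sf2 at 0.36, Mvd at 0.75 (SE 0.285, adjusted p = 0.843, edgeR quasi-likelihood) and Stard4 at 0.49, and among fatty acid genes to Elovl5 at -0.23, Acaca at -0.28 and Elovl6 at 0.26. At an unadjusted p under 0.05 there were 0, 3 and 1 cholesterol genes and no fatty acid gene, against 1.82%, 3.97% and 6.51% of all genes.

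Several cholesterol genes and both Fads genes were lower in samples numbered 10. The title number was tested in a fit with the 6 group means and the number. Between 10 and 11, 3 of 24 cholesterol genes passed, all lower in 10 (Acat2, Nsdhl and Hsd17b7), and 2 of 9 fatty acid genes (Fads1 and Fads2), also lower, against 3.8% of all genes tested in either direction and 1.78% lower in 10. Between 10 and 14, 6 of 24 cholesterol genes passed, all lower in 10 (Hsd17b7, Nsdhl, Insig1, Dhcr7, Fdft1 and Acat2), and Fads2 and Fads1, also lower, against 8.44% of all genes in either direction and 3.53% lower in 10. Between 14 and 11 none of the 33 passed, against 5.23% of all genes (edgeR quasi-likelihood, Benjamini-Hochberg). There, 2 cholesterol and 2 fatty acid genes had an unadjusted p under 0.05, against 24% of all genes. In the same comparison limma-voom and the DESeq2 Wald test called none of the 33, with 6.05% and 8.76% of all genes. Number 10 had the lowest mean of the 3 numbers for 16 of 24 cholesterol genes (66.7%) and 5 of 9 fatty acid genes (55.6%), against 29.4% of all genes tested.

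The widest ranges of title-number means among cholesterol genes, on the log2 CPM scale, were those of Hsd17b7 (0.43), Nsdhl (0.41) and Acat2 (0.36). Hsd17b7, a reductase of sterol ketones, had 43.8, 46.0 and 64.1 CPM in WT PBS samples 10, 11 and 14, 39.0, 49.7 and 53.2 CPM in WT BSA and 44.4, 57.3 and 53.2 CPM in WT IgG. In TRIM21 it had 36.9, 38.7 and 41.5 CPM after PBS, 33.1, 56.3 and 47.7 CPM after BSA and 34.0, 44.5 and 52.9 CPM after IgG. Sample 10 was the lowest in each of the 6 groups, and the log2 fold changes were -0.43 against 14 (SE 0.088, adjusted p = 0.011) and -0.34 against 11 (SE 0.088, adjusted p = 0.043; edgeR quasi-likelihood).

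Nsdhl had 79.2, 98.6 and 119.9 CPM in WT PBS samples 10, 11 and 14, 86.5, 105 and 102 CPM in WT BSA and 85.9, 118 and 98.9 CPM in WT IgG. In TRIM21 it had 68.8, 73.3 and 77.0 CPM after PBS, 55.9, 101 and 84.5 CPM after BSA and 59.5, 79.0 and 92.9 CPM after IgG. Here too sample 10 was the lowest in all 6 groups, at -0.41 against 14 (SE 0.088, adjusted p = 0.014) and -0.40 against 11 (SE 0.088, adjusted p = 0.021; edgeR quasi-likelihood). Acat2, the thiolase at the head of the pathway, averaged 112 ± 15.7 CPM in samples 10, 143 ± 14.6 CPM in samples 11 and 132 ± 11.7 CPM in samples 14 (SD, n = 6 each). Its log2 fold change was -0.36 against 11 (SE 0.076, adjusted p = 0.017, edgeR quasi-likelihood).

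Among fatty acid genes the widest ranges were those of Fads1 (0.27), Elovl5 (0.22) and Scd2 (0.22). Fads1 averaged 261 ± 10.95 CPM in samples 10, 314 ± 20.4 CPM in samples 11 and 299.6 ± 13.1 CPM in samples 14 (SD, n = 6 each). All samples 10, at 244 to 274 CPM, lay below all others, at 278 to 351 CPM. The share of all genes separated in this way was not counted. It cannot exceed the 1.5% of tested genes whose sample 10 was the lowest in all 6 groups. The log2 fold changes of Fads1 were -0.27 against 11 (SE 0.054, adjusted p = 0.014) and -0.20 against 14 (SE 0.054, adjusted p = 0.031, edgeR quasi-likelihood). Fads2, which lies near Fads1 on chromosome 19, averaged 74.0 ± 3.18, 85.3 ± 4.34 and 85.8 ± 6.79 CPM. Elovl5 averaged 115 ± 8.32, 134 ± 16.4 and 121 ± 9.82 CPM, and Scd2 1974 ± 109, 2009 ± 409 and 2289 ± 113 CPM, where the wide SD at number 11 comes with TRIM21 PBS 11 at 1304 CPM. Sample 10 was the lowest in all 6 groups for Nsdhl, Hsd17b7, Fads1 and Fads2, or 2 of 24 cholesterol and 2 of 9 fatty acid genes, against 1.5% of all genes tested.

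**Figure D5:**
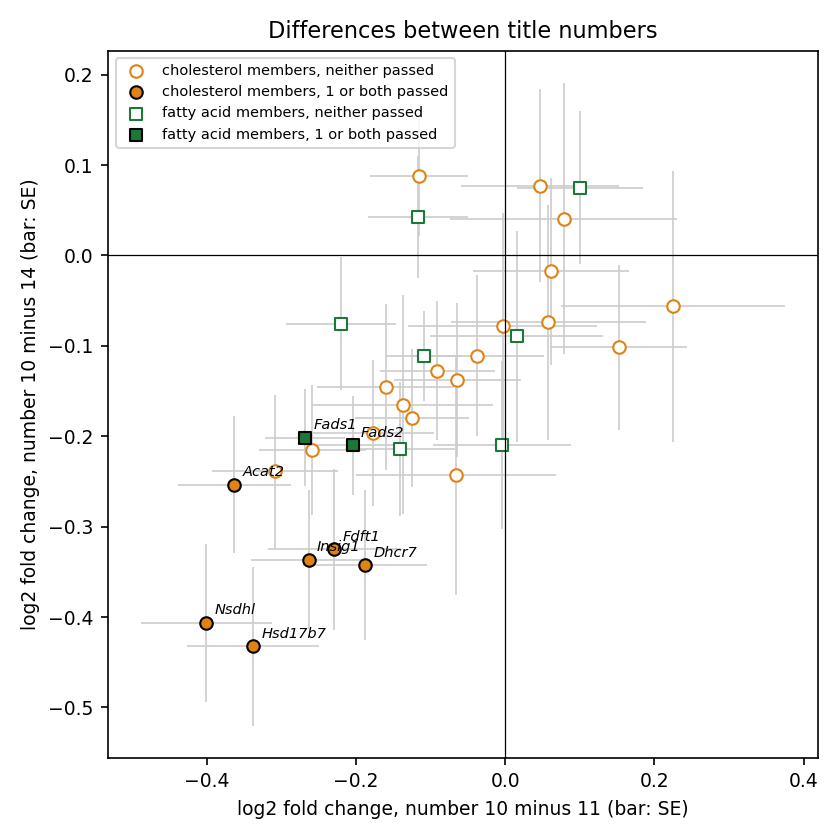
Log2 fold change of number 10 minus number 11 (horizontal) and number 10 minus number 14 (vertical) for each gene, with SE bars; filled symbols passed in at least 1 of the 2, and both share the samples numbered 10. Named genes lie in the lower left, from Fads1 at -0.27 and -0.20 to Hsd17b7 at -0.34 and -0.43.

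Fits to the 9 samples of 1 line alone called none of the 33 between numbers, and at most 0.545% of all genes tested (TRIM21, 10 minus 14). The count of cholesterol genes between 10 and 11 rested on single samples: it was 0 without TRIM21 BSA 10 or TRIM21 IgG 10, 1 without WT PBS 10 or WT IgG 10, 5 without TRIM21 PBS 14, TRIM21 IgG 14 or WT IgG 14, and 6 without TRIM21 PBS 10 or WT PBS 14. In the 4 fits with 0 or 1 such gene the share of all genes was also lower, at 1.03% to 1.3%, and in the 5 with more it was 2.09% to 5.48%. Between 10 and 14 it was 2 without TRIM21 BSA 10 and 3 without TRIM21 BSA 14, TRIM21 IgG 10 or WT IgG 10, with 1.91% to 4.15% of all genes. Since every number occurs once in every group, the line comparison is balanced over numbers, and it was also made within each number (3 samples of each line). The cholesterol median was -0.27, -0.19 and -0.19 within 10, 11 and 14, and 22, 20 and 21 of 24 genes were below 0. The share of all genes below 0 within each number is not listed here. Within number 10, 5 cholesterol genes passed (Pmvk, Fdps, Lss, Nsdhl and Dhcr7), against 2.64% of all genes tested, and within 11 and 14 none did, against 0.406% and 2.11% (edgeR quasi-likelihood).

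Deviations of the cholesterol enzymes from their group means ran in parallel across samples. Over the 153 pairs among the 18 enzymes, the median correlation of these deviations across the 18 samples was 0.45, and 76.5% of pairs were positive. Over all 24 cholesterol genes the median was 0.33, with 68.1% of pairs positive. Among the 9 fatty acid genes the median was 0.28, with 69.4% positive. Over all pairs of tested genes it was -0.005, with 49.6% positive. These are descriptions: the samples share title numbers, and libraries differ in how level depends on transcript GC content. That slope ran from -0.29 to 0.15 log2 units per 10 points of GC between libraries, with means of 0.010 in TRIM21 and -0.010 in WT. Of the 33 genes, Insig1 followed the cholesterol enzymes most closely, with a median correlation of 0.79. Sqle, Hsd17b7, Msmo1 and Nsdhl came next, between 0.76 and 0.75, and then Scd1, a fatty acid gene, at 0.73. Negative medians were found for Scap (-0.53), Srebf1 (-0.38), Mvk (-0.35), Fasn (-0.31), Ebp (-0.12) and Elovl6 (-0.005). The first 4 of these have a transcript GC content of 59.1%, 58.4%, 56.3% and 57.9%, against a median of 49.5% over the tested genes. Ebp and Elovl6 have 50.9% and 44.0%. Mvd, Srebf2 and Pmvk, at 59.0%, 57.9% and 57.0%, had medians of 0.10, 0.002 and 0.22. After removal of the GC trend from each library, the enzymes' median was 0.62, Srebf2 went from 0.002 to 0.60 and Mvd from 0.10 to 0.66. The median among the 9 fatty acid genes was then 0.26, with 80.6% of pairs positive, against 83.0% among the enzymes. Scap then stood at -0.37, Mvk at -0.21, Srebf1 at -0.18, Elovl6 at -0.14, Ebp at -0.13 and Fasn at -0.08.

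Of 54 other genes around these pathways, 51 could be tested in the line comparison. Of these 2 passed, both lower in TRIM21, against 6.18% of all genes tested in either direction and 4.79% lower. Vldlr, a lipoprotein receptor, had 7.29 ± 2.63 CPM in TRIM21 and 16.5 ± 2.76 CPM in WT (SD, n = 9 each), which gave a log2 change of -1.19 (SE 0.172, adjusted p = 0.00019, edgeR quasi-likelihood). Npc2, which hands cholesterol out of lysosomes, had 420.2 ± 18.9 and 525 ± 30.7 CPM, a log2 fold change of -0.32 (SE 0.048, adjusted p = 0.00028, edgeR quasi-likelihood). Each was lower in 9 of 9 pairs. By role, the medians were 0.011 over 9 genes of the isoprenoid branch, 0.063 over 9 genes of SREBP processing, of which 7 lay above 0, -0.020 over 12 genes of cholesterol storage and transport and -0.047 over 21 genes of fatty acid supply and complex lipids. The isoprenoid branch draws on the same farnesyl diphosphate that Fdps makes, and none of its 9 genes passed. In these bulk samples, fewer cells of a kind and less RNA of a gene per cell cannot be told apart for any of the genes described.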

How the data were processed

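Gene-level read counts were deposited by the authors, 1 table per sample, as raw counts with no normalization. The submitters' processing notes name bcl2fastq 2.19.1.403, FastQC 0.11.5, STAR 2.5.1b, HTSeq 0.6.0, DESeq2 1.6.3 and mm10, without their roles, and libraries were strand-specific and selected for polyadenylated RNA, per the labels' protocols. Rows that name no gene were left out of library sizes, the no-feature row being 13.1% to 18.8%. Counts were fitted with edgeR 4.0.16 (R 4.3.3; TMM factors 0.977 to 1.03; filterByExpr with a minimum count of 10 and total of 15; quasi-likelihood test), with 1 mean per group over 18 samples, or group and title number, and p-values were adjusted over 12140 genes with a threshold of 0.05. The code was tested on simulated data. CPM are counts scaled to 1000000 after TMM. Replicates differed beyond sampling noise (chi-square per degree of freedom 10.6 to 82.0). Alternatives were DESeq2 1.42.0, limma-voom (limma 3.58.1), other scaling and filters, a replicate block, subsets of samples and, chosen after seeing the data, a GC-content offset (GC known for 99.3% of genes).

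The members and lists were chosen with earlier results of these data known. Values by sample or range were given for genes past the threshold between lines and, whatever their result, for the main regulators and most studied enzymes. For title numbers they were given for the 3 widest ranges in each list, and for treatments for the smallest p in each. Certain genes of these pathways are not reported here.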

Additional observations from a re-analysis of the deposited data

How the results depend on the processing

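Each group had 3 samples, and the lowest count of any of the 33 genes was 116 reads. How far counting error limits the calls was not tested. For the line effect, the 3 cholesterol genes past the threshold became 5 with no low-count filter, with the DESeq2 Wald test and with the GC-content offset. The shares of all genes there were 4.72%, 8.57% and 9.55%, against 6.18% in the main fit. Within title numbers 10, 11 and 14 the cholesterol genes numbered 5, 0 and 0, with 2.64%, 0.406% and 2.11% of all genes. When 1 sample was left out they numbered 2 to 7, with 4.23% to 10.4% of all genes. The cholesterol median of -0.21 stayed between -0.27 and -0.17 in every setting, and the fatty acid median of -0.016 became 0.10 within number 11. After PBS the count of 0 became 2 with no filter, with DESeq2 and with the GC-content offset. The shares of all genes there were 1.56%, 3.71% and 2.83%, against 1.71% in the main fit. Without 1 sample the count after PBS was 0 to 4, with 0.851% to 8.33% of all genes. After BSA the count of 0, with 0.848% of all genes in the main fit, became 1 with DESeq2 and with the compared groups alone. It was 0 to 1 after BSA without 1 sample. The shares of all genes in these alternatives after BSA are not listed here, so the single calls are not read as a result. No setting gave a call among the 33 genes between treatments, in the interaction or after IgG.

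Between numbers 10 and 11, the 3 cholesterol genes became 5 with DESeq2 size factors, 6 with the DESeq2 Wald test, 7 with the GC-content offset and 1 with number alone. The shares of all genes there were 3.81%, 6.19%, 8.56% and 1.93%, against 3.8% in the main fit. In each line alone 0 passed, with 0% of all genes in TRIM21 and 0.1% in WT. Without 1 sample 0 to 6 passed, with 1.03% to 5.48% of all genes. The 2 fatty acid genes became 1 with no filter (2.53% of all genes) or number alone, 0 in each line alone and 1 to 2 without 1 sample, but 3 with the GC-content offset. Between 10 and 14, the 6 cholesterol genes became 9 with the GC-content offset, 7 with the DESeq2 Wald test and 1 with number alone. The shares of all genes there were 14.8%, 10.6% and 3.19%, against 8.44% in the main fit. In each line alone 0 passed, with 0.545% of all genes in TRIM21 and 0.117% in WT. Without 1 sample 2 to 8 passed, with 1.91% to 12.2% of all genes. The 2 fatty acid genes became 3 with the GC-content offset and with the DESeq2 Wald test, 1 with no filter (5.26% of all genes), 0 in each line alone and 0 to 4 without 1 sample. Between 14 and 11, 1 cholesterol gene passed with the GC-content offset, with 10.8% of all genes, against 5.23% in the main fit. Without 1 sample 0 to 1 gene of each list passed, with 0.646% to 10.3% of all genes. Over all genes, 750 calls between lines became 1159 with the GC-content offset and 1268 without TRIM21 PBS 14, and the 461, 1025 and 635 calls between numbers became 1039, 1793 and 1315 with that offset. The cause of these shifts was not tested.

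The samples share only a number: 32 of 45 same-numbered pairs had correlated deviations above 0.1 (mean 0.218, range -0.323 to 0.579), and 16 of 18 samples correlated best with their own number. With the replicate block, 3 cholesterol genes passed after PBS, with 6.98% of all genes, against 1.71% in the main fit. Between lines 10 cholesterol genes passed, with 1462 calls over all genes (12%). Beside Pmvk, Fdps and Lss these were Nsdhl, Dhcr7, Insig1, Msmo1, Cyp51, Fdft1 and Hsd17b7, all lower, with adjusted p from 0.0024 to 0.046 (edgeR quasi-likelihood). With the replicate block and GC-content offset together, 13 passed between lines (12 lower, Scap higher), with 2364 calls over all genes (19.5%). In that setting 10 passed after PBS, with 16.4% of all genes, and 1 after BSA, where the share of all genes is not listed here.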
